A study of Prunus persica with 20 samples.

Results

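The comparison is between the fruits of a pair of smooth-skinned peach accessions (Prunus persica): MN, the Maravilha Nectarine Mutant, which arose from a peach and is labelled Gg, and Sunraycer, a commercial nectarine labelled gg. All 5 MN libraries (replicates 1, 3, 4, 5 and 6) and all 5 Sunraycer libraries (replicates 1, 2, 3, 4 and 10) were taken, 10 of the 19 libraries with counts. The other 9 come from the peaches TN11 (GG, 5 libraries) and TN7 (Gg, 4 libraries), and serve as a reference. All are mRNA libraries from fruit at fruit set, and no treatment, tree age or harvest date is given. Each nectarine is a single accession, and nothing in the labels ties MN to the peach it came from, so its genotype at G cannot be told apart from the rest of its genome. Whether the replicates were separate trees is not stated, and p-values here reflect only how far these libraries spread, which may be technical.

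Peach and nectarine differ in the hairs (trichomes) of the fruit skin, which are single outgrown epidermal cells. The hairy allele G is dominant over g, and recessive gg fruit is smooth. A fruit labelled Gg is therefore hairy by this rule, as TN7 is, and MN is smooth all the same. Plant trichomes are known to depend on MYB transcription factors acting in the epidermis. At fruit set the ovary leaves the flower stage and starts a phase of cell division, so transcript levels in such fruit can shift within a short time.

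Library totals ran from 14890206 (Sunraycer 3) to 24474843 (Sunraycer 2) counts among the nectarines. Within MN the libraries correlated by 0.965 to 0.992 across genes on the log2(CPM + 1) scale, and within Sunraycer by 0.909 to 0.984. CPM values are counts scaled to library size with TMM factors. Sunraycer 1 stood farthest from its group, with 116 genes more than 4-fold below and 30 more than 4-fold above each of the other 4 Sunraycer libraries. No other nectarine library had more than 20 genes above or 8 below by that measure. Values without Sunraycer 1 are given beside the results it moved most.

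Published work on nectarines assigns the G locus to a MYB gene, PpMYB25, here Prupe.5G196100.v2.1, which was low in both nectarines. MN libraries had 2.55, 2.24, 3.25, 4.27 and 4.08 CPM, and Sunraycer libraries had 1.43, 1.85, 3.07, 4.96 and 0.847 CPM. The groups overlapped, and every peach library was higher, from 14.3 CPM upward. MN minus Sunraycer was 0.43 on the log2 scale (95% interval −0.27 to 1.12, edgeR quasi-likelihood adjusted p = 0.265). The interval includes no difference and a 2-fold difference. Sunraycer 4, the highest Sunraycer library, decided this: without it the difference was 0.869 (SE 0.283, edgeR adjusted p = 0.016), under the 2-fold minimum. With the replicate number as a block it was 0.023. Of the 40 tested genes nearest to it on chromosome 5, 20 on each side, 3 were higher (7.5%) and 10 lower (25%) in MN, beside 8.41% and 16.8% of all tested genes, and their median difference was 0.215 on the log2 scale.

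Of the genes called between MN and Sunraycer, more were lower than higher in MN, above all among differences of 4-fold and more. Genes are called at an edgeR quasi-likelihood adjusted p below 0.05 together with a difference of at least 2-fold. Of 19360 genes tested, 4884 were called (25.2%), 1628 higher (8.41%) and 3256 lower (16.8%) in MN. At a minimum of 4-fold, 234 genes were higher and 1749 lower, so that 88.2% were lower. At 8-fold, 95 were higher (0.491% of tested genes) and 879 lower (4.54%), or 90.2% lower. At 16-fold the counts were 65 and 410, or 86.3% lower. Without Sunraycer 1, 93 genes were at least 8-fold higher and 709 lower. The median size was 2.49-fold among the higher genes and 4.34-fold among the lower ones. Genes without a count in the lower accession have a fitted fold that depends on the prior count. With these 26 higher and 52 lower genes set to their bound of 3 counts over the group, the medians were 2.48-fold and 4.34-fold, and 89 and 868 genes reached 8-fold.

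The asymmetry was one of large differences. Without the 2-fold minimum, 5800 genes were higher and 5939 lower at the same adjusted p, and the median difference of all tested genes was 0.0355 on the log2 scale. For 9714 genes (50.2%) the 95% interval of the difference lay wholly within 2-fold either way. A further 4762 were not called but had intervals that reached past 2-fold, so that a 2-fold difference remains possible for them. Library values of MN and Sunraycer did not overlap for 79.5% of the called genes, 83.6% of the higher and 77.4% of the lower, and for 41.1% of all tested genes.

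**Figure D1:**
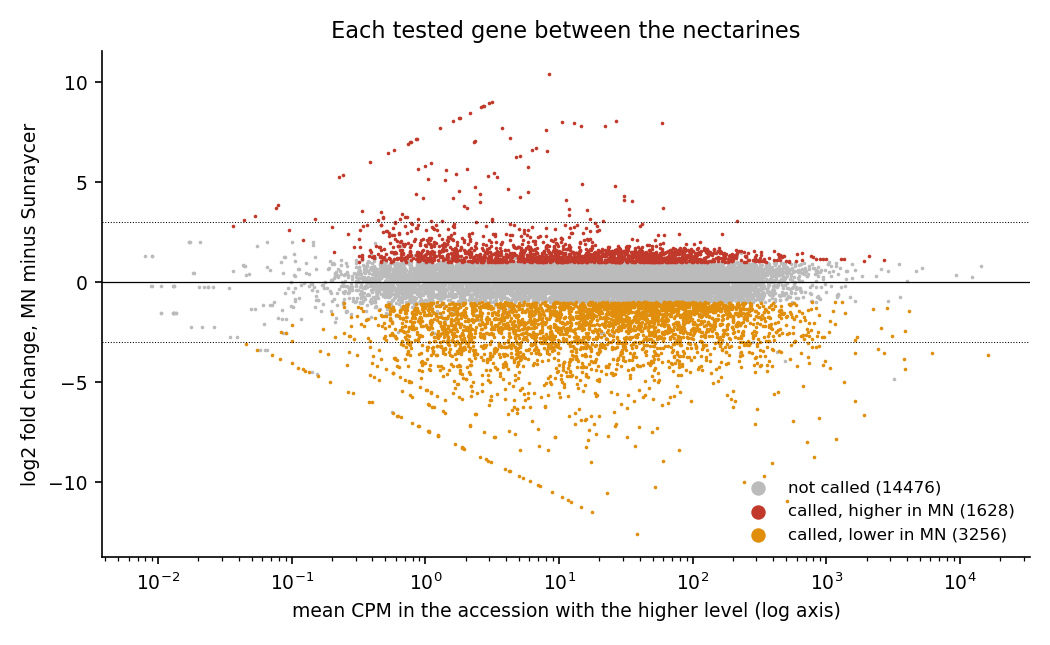
Log2 fold change (MN minus Sunraycer) of each tested gene against its mean CPM in the accession where it is higher, on a log axis; red and orange points are called, dotted lines mark 8-fold. Orange points (3256) reach far below the lower dotted line at most levels, while red points (1628) mostly lie close to 2-fold; straight diagonal edges are genes without a count in the lower accession.

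By expression level, the share of genes lower in MN was highest in the top class, a description without a test. Among the 72 genes with a mean of at least 1000 CPM in either nectarine, 27 (37.5%) were lower and 5 (6.94%) higher in MN. Classes follow the nectarine with the higher mean, so genes far lower in MN can enter the top class through Sunraycer alone. The share in that class therefore depends in part on the differences themselves. Among the 10109 genes between 10 and 100 CPM, the shares were 13.5% and 6.89%, the smallest share lower of any class. Lower genes made up 16.7% below 1 CPM, 22.1% from 1 to 10 CPM and 19.2% from 100 to 1000 CPM. The share lower thus did not rise steadily with level. The most abundant lower gene, Prupe.3G012400.v2.1, had 329, 120, 3430, 1480 and 1010 CPM in MN and 25900, 15500, 8550, 16700 and 13700 CPM in Sunraycer. Named genes were taken only among called genes whose libraries do not overlap, so every Sunraycer library was above every MN library by selection. MN itself ranged widely. MN minus Sunraycer was −3.66 on log2 (SE 1.02, edgeR adjusted p = 0.00596). In the peaches the gene had 424 to 7880 CPM in TN11 and 266 to 5980 CPM in TN7.

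Its neighbour Prupe.3G012200.v2.1 had 118, 54.7, 1350, 586 and 483 CPM in MN and 10200, 5970, 3500, 6220 and 4770 CPM in Sunraycer. The order of the libraries was close to that of the first gene, and the groups did not overlap, again by selection (log2 −3.57, SE 0.912, edgeR adjusted p = 0.0035). With the direction score described further on as a covariate, the log2 differences of these genes were −0.011 and 0.015, neither called. Without MN 4, the highest MN library, they were −4.45 and −4.302. Both lie in a row of 7 consecutive tested genes on chromosome 3, all lower in MN, with log2 differences from −4.12 to −2.13. Together the 7 took 2.33% of the scaled counts in Sunraycer and 0.186% in MN. Whether such neighbours are copies that share reads was not checked here.

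The most abundant higher gene by the rule for named genes, Prupe.3G174700.v2.1, had 1950, 2340, 1610, 1980 and 2550 CPM in MN. In Sunraycer it had 234, 622, 1140, 676 and 1600 CPM, so the groups nearly touched, and Sunraycer 1 was lowest. The fitted difference was 2.44-fold (log2 1.29, SE 0.336, edgeR adjusted p = 0.00397), and with Sunraycer 1 and MN 3 both left out it was 0.973 on the log2 scale, under the 2-fold minimum. With the direction score as a covariate its sign turned, to −0.57, without a call. Prupe.4G048800.v2.1 had 1700 to 2180 CPM in MN and 238 to 1410 CPM in Sunraycer, again lowest in Sunraycer 1. Its log2 difference of 1.055 (SE 0.324, edgeR adjusted p = 0.0105) became 0.786 without that library, under the 2-fold minimum, and −0.632, not called, with the direction score as a covariate.

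Sunraycer libraries varied more among themselves than MN libraries did. Over the tested genes, the median SD of log2(CPM + 1) between libraries was 0.315 in Sunraycer and 0.165 in MN, beside 0.217 in TN7 and 0.181 in TN11. Without Sunraycer 1 the Sunraycer value was 0.232. Among the 3256 genes lower in MN, Sunraycer 1 was the highest of the 5 Sunraycer libraries in 2071 (63.6%), and Sunraycer 3 in 63 (1.93%). Without Sunraycer 1, 3854 genes were called, and the higher genes numbered 1032, down from 1628. Of the 879 genes at least 8-fold lower, 830 were still called lower without it, and 94 of the 95 at least 8-fold higher were still called higher.

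A direction of spread was then taken from the peaches alone, as the first principal component of log2(CPM + 1) around the means of TN7 and TN11. It held 53.5% of the spread inside the peaches, and no nectarine library was used to set it, except that its sign was chosen so that Sunraycer lies high. MN libraries scored −58.4, −63.4, −2.65, −20.6 and −30.9 along it, and Sunraycer libraries 125, 67.0, 37.9, 62.2 and 62.8. The nectarines did not overlap, with means of −35.2 ± 25.6 in MN and 71.0 ± 32.3 in Sunraycer (SD, n = 5 each, exact two-sided permutation p = 0.00794, the smallest that 5 against 5 can give). The peaches covered the ground between them, from −37.2 to 58.3 in TN7 and from −26.2 to 31.3 in TN11. MN 1 and MN 3 lay below every peach library, and Sunraycer 1, 2, 4 and 10 above every one.

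Genes that rose along this direction inside the peaches made up 85.9% of the genes lower in MN, 13.5% of those higher in MN and 47.1% of all tested genes. The shares are 84% and 37.9% for the genes at least 8-fold lower and higher. The score adds up genes by how they rise or fall along the direction, so these shares partly restate the separation of the scores. With the score as a covariate in a fit of the 10 nectarine libraries, 144 genes were called, 64 higher and 80 lower, and 131 of them had been called in the same direction without it. Of the 95 genes at least 8-fold higher, 46 (48.4%) stayed called in that fit, and of the 879 at least 8-fold lower, 49 (5.57%). The same 10 libraries without the score kept 75 and 724 of them. At 8-fold or more, the fit with the score called 53 genes higher and 50 lower. Genes at an unadjusted edgeR p below 0.05 numbered 1878 in that fit and 10912 in the same libraries without the score. With so few calls left, these counts cannot show whether the excess of lower genes depends on the direction. Since the scores of MN and Sunraycer do not overlap, the direction and the accession cannot be told apart for most genes. What the direction stands for was not tested.

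**Figure D2:**
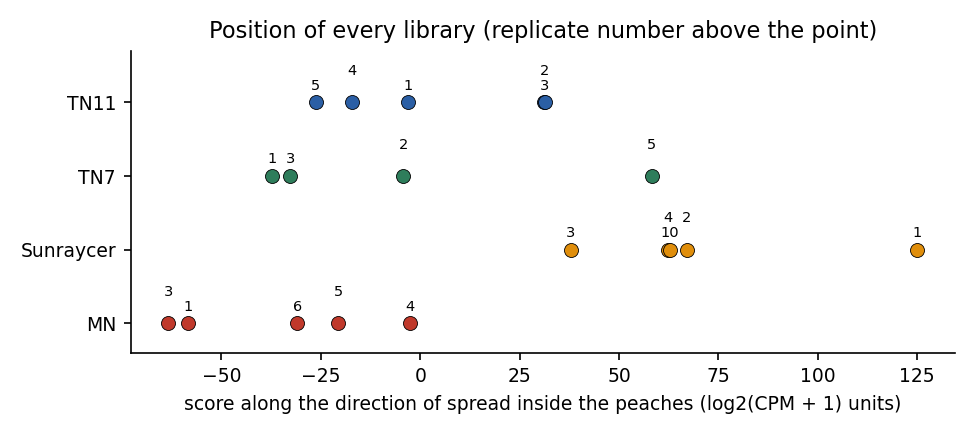
Score of each library along the direction of spread inside the peaches, in log2(CPM + 1) units, by accession, with the replicate number above each point. MN (−63.4 to −2.65) and Sunraycer (37.9 to 125) lie at opposite ends without overlap, and TN7 5 (58.3) reaches into the range of Sunraycer.

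The genes with the largest differences fell into steady and widely varying ones. By the rule for named genes, the 10 with the largest fold in each direction were taken among called genes with at least 10 CPM and no overlap. The 10 higher in MN were 17.5-fold to 265-fold higher. For 3 of these, including the one at 265-fold, Sunraycer counts (3 to 8) were in Sunraycer 1 alone, so that without it Sunraycer has none and the fitted fold depends on the prior count. Of the other 7, the fold moved by over 1.5 times without Sunraycer 1 in 3. None of the 10 had an SD above 1 on the log2(CPM + 1) scale among MN libraries. Of the 10 lower in MN, 7 had such an SD among Sunraycer libraries. Across the 879 genes at least 8-fold lower, 173 (19.7%) varied that widely in Sunraycer, against 1 of the 95 at least 8-fold higher in MN. These sets are not alike. Over all tested genes the median SD was 0.315 in Sunraycer and 0.165 in MN. The median level in the higher nectarine was 10.2 CPM for the lower genes and 2.29 CPM for the higher ones.

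Steady genes were those at least 8-fold apart, without overlap and with an SD below 0.5 in both nectarines: 77 higher and 152 lower in MN. Most were near the floor, where the log2(CPM + 1) scale keeps the SD small. Their median level in the higher nectarine was 2.04 CPM for the higher and 1.83 CPM for the lower genes. The other nectarine was below 1 CPM in 73 and 144 of them. From the 10 largest of each direction, the steadiest by standard error are described. Prupe.5G035800.v2.1 had 11.1, 11.1, 12.1, 11 and 11.4 CPM in MN, and 0.518, 0.616, 1.09, 0.791 and 0.195 CPM in Sunraycer. It was nearly constant in MN and low throughout Sunraycer (log2 4.13, SE 0.236, edgeR adjusted p = 1.53e-09). Its peach levels were 10.7 to 12.2 CPM in TN11 and 6.11 to 6.75 CPM in TN7, so that Sunraycer was the low accession of the 4.

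The next, Prupe.2G037900.v2.1, had 24.5, 29.8, 25.3, 25.2 and 27.2 CPM in MN and 1.17, 0.66, 0.954, 0.897 and 0.977 CPM in Sunraycer (log2 4.83, SE 0.34, edgeR adjusted p = 2.32e-08). Here MN is the accession apart: TN7 had 0.386 to 1.49 CPM and TN11 had 0.308 to 1.10 CPM.

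In the other direction, Prupe.8G008700.v2.1 had 0.17, 0.224, 0.361, 0.198 and 0.185 CPM in MN, from 3 to 8 counts a library. Sunraycer had 320, 302, 243, 196 and 144 CPM, and the peaches 56.9 to 132 CPM. MN was 1020-fold lower than Sunraycer (log2 SE 0.315, edgeR adjusted p = 5.01e-13), low in all 5 libraries. Prupe.6G049400.v2.1 had no count in MN or in either peach, and 6.87, 12.2, 12.4, 15.8 and 11.1 CPM in Sunraycer. It was at least 424-fold lower in MN, against a floor of 3 counts over the 5 MN libraries (edgeR adjusted p = 1.51e-05).

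Among the widely varying genes, a pair shows the contrast. Prupe.4G099500.v2.1 had 0 to 0.514 CPM in MN, and 225, 41.0, 78.1, 1420 and 775 CPM in Sunraycer, highest in Sunraycer 4 and 10. MN was lower by a fitted 1970-fold (log2 SE 1.47, edgeR adjusted p = 2.93e-05). With the direction score as a covariate the log2 difference was about as large, −10.915 after −10.945, but its SE rose to 3.6 and the adjusted p to 0.319. Prupe.6G267700.v2.1 had 0 to 1.17 CPM in MN and 194, 44.6, 88.1, 696 and 693 CPM in Sunraycer, again highest in 4 and 10 (log2 −9.70, SE 1.69, edgeR adjusted p = 0.000222). With the score it was −8.755 (SE 2.76, adjusted p = 0.287). Among the peaches it was highest in TN11 2, at 50.1 CPM, and TN7 5, at 32 CPM, against 0.84 to 3.6 CPM in the rest. Leaving out a library gave log2 differences of −11.435 to −10.082 for Prupe.4G099500.v2.1 (smallest without Sunraycer 4) and −10.602 (without MN 4) to −9.269 for Prupe.6G267700.v2.1. The order among libraries did not follow the score throughout: TN11 3 scored as high as TN11 2 but had 3.6 CPM, and Sunraycer 1, with the highest score, had less than Sunraycer 4 and 10.

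**Figure D3:**
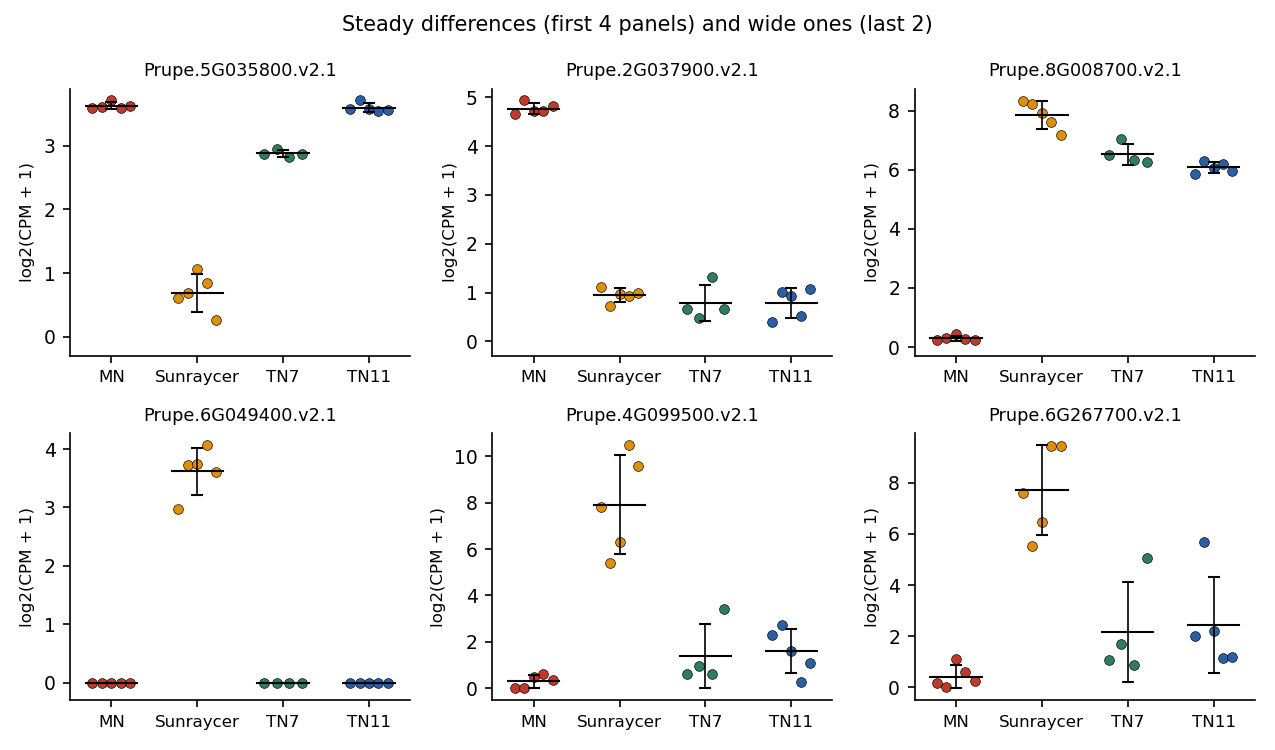
Log2(CPM + 1) of 6 genes in every library, with the mean and SD of each accession (n = 5, 5, 4 and 5). The first 4 genes separate MN from Sunraycer with little spread, as Prupe.8G008700.v2.1 does with MN near 0. In the last 2 the Sunraycer libraries spread from 41.0 to 1420 CPM and from 44.6 to 696 CPM.

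The peach libraries entered the called genes through the filter, the scaling and the shared estimate of spread, but not through the contrast. Where they lie relative to the nectarines is described here without a test. For the 3256 genes lower in MN, the mean of the peaches was nearer to MN in 2108 (64.7%) on the log2(CPM + 1) scale. For the 1628 higher genes it was nearer to MN in 926 (56.9%). The peaches taken singly differed: TN7 was nearer to MN in 68.7% of the lower and 53.4% of the higher genes. For TN11 these shares were 59.2% and 56.2%. Peach means lay beyond MN or beyond Sunraycer in 332 and 359 of the lower and in 210 and 94 of the higher genes, and between the nectarines in the rest. At 8-fold or more, the peaches were nearer to MN in 649 of the 879 lower genes and nearer to Sunraycer in 51 of the 95 higher ones. Among steady genes, both peaches were below 1 CPM in 92 of the 152 lower and in 39 of the 77 higher. The median level of these sets was itself only 1.83 and 2.04 CPM in the higher nectarine.

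Some genes had reads in all libraries of 1 nectarine and none in the other. With at least 1 CPM in every library of the expressing accession, 13 genes had no count in MN and 10 had no count in Sunraycer. Of the 13, 5 had a mean of at least 1 CPM in both peaches and 2 had no count in any peach library. Of the 10, 3 had at least 1 CPM in both peaches and 1 had no count in the peaches. All 23 were called, which their selection made nearly certain, beside 25.2% of all tested genes.

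Most of the 23 genes stood alone, and a few were neighbours by number, of which a pair from each direction, chosen after values were seen, is described. On chromosome 4, Prupe.4G092800.v2.1 and Prupe.4G092900.v2.1 had no count in MN. In Sunraycer the former had 4.86 to 10 CPM and the latter 3.3 to 6.91 CPM. TN7 averaged 9.76 and 9.48 CPM and TN11 5.41 and 8.88 CPM for the pair, so MN was the accession without reads, at least 251-fold and 181-fold below Sunraycer. On chromosome 8, Prupe.8G054600.v2.1 and Prupe.8G054700.v2.1 had no count in Sunraycer, and were at least 78-fold and 62.9-fold higher in MN. Prupe.8G054600.v2.1 had 2.94, 1.89, 3.21, 2.65 and 2.73 CPM in MN, 1.63 to 3.91 CPM in TN7 and 1.52 to 3.89 CPM in TN11, so that the other accessions overlapped.

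Counts in Sunraycer 1 bear on the second list. Of 17 genes with no count in the other 4 Sunraycer libraries and at least 1 CPM in every MN library, 7 had counts in Sunraycer 1, 28 in all, or 1.72% of the MN level. Leaving out Sunraycer 1 therefore raised the list from 10 to 17 genes. Of the other nectarine libraries, MN 5 had counts in 3 of 16 such genes (0.326% of the Sunraycer level) and Sunraycer 4 in 1 of 11, and the rest in at most 1. The cause of these low counts was not tested.

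Chromosome 8 held 7 of the 10 genes without a count in Sunraycer. The gene numbers follow the order along the chromosome by the naming scheme of the peach annotation, and no coordinates were used. The share of genes called was much the same on every chromosome, from 23.7% on chromosome 7 to 27.3% on chromosome 4. Genes at least 8-fold higher in MN and without overlap numbered 89 (0.46% of tested genes), and 24 of them were on chromosome 8 and 21 on chromosome 2, which hold 9.98% and 12.1% of the tested genes. In the other direction there were 772 (3.99%), from 51 on chromosome 5 to 199 on chromosome 1.

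**Figure D4:**
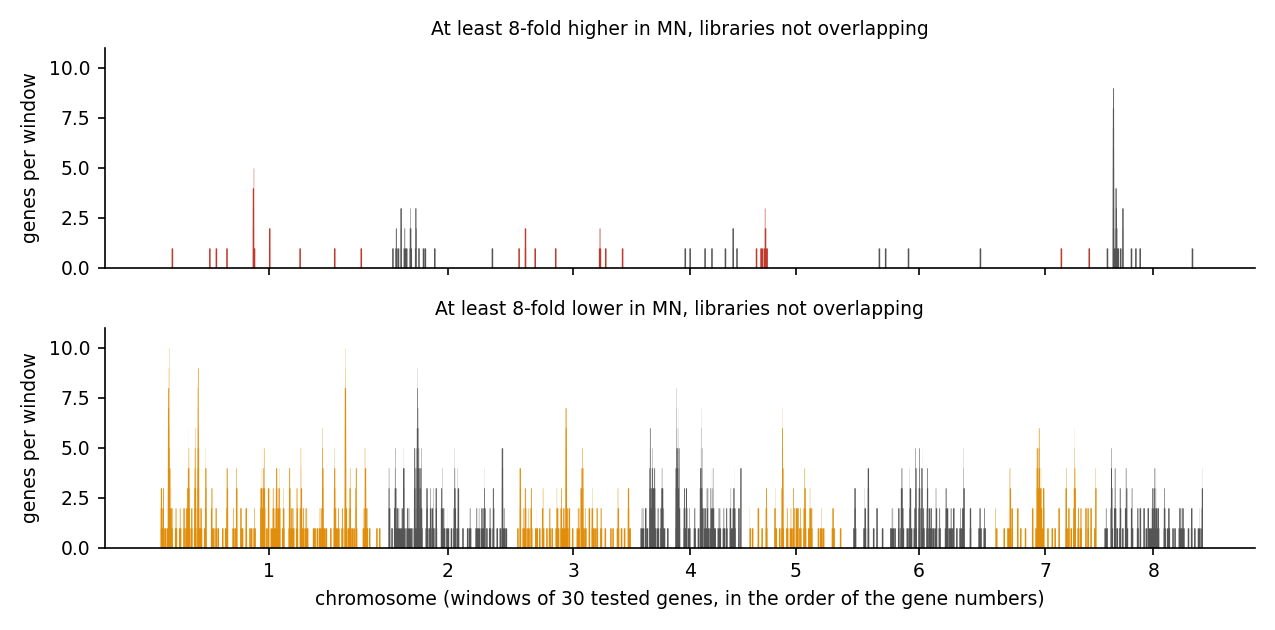
Number of genes at least 8-fold apart without overlap in sliding windows of 30 consecutive tested genes, by chromosome (alternating colours), for genes higher (top) and lower (bottom) in MN. Higher genes peak at 9 in a window on chromosome 8, with at most 5 on any other chromosome, while lower genes are spread over all chromosomes, up to 10 in a window on chromosome 1.

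In windows of 30 consecutive tested genes, the most such higher genes was 9, near the start of the numbering of chromosome 8, from Prupe.8G024200.v2.1 to Prupe.8G028000.v2.1. The median window held none. Within it 8 consecutive tested genes, Prupe.8G026400.v2.1 to Prupe.8G027100.v2.1, were all higher in MN. Only 2 rows of at least 5 consecutive genes were higher in MN, both on chromosome 8, whereas 23 were lower. Of all tested genes, 8.41% were called higher and 16.8% lower. The longest lower rows held 9 and 8 genes, both on chromosome 1. In every fit that left out a library, 10 genes of the window were called higher, and 8 with the direction score as a covariate. The window was chosen as the maximum in these same libraries, so these fits do not test it.

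The 9 strongly differing genes of the window were nearly silent in Sunraycer. None exceeded a mean of 0.148 CPM there, 3 had no count at all, and in MN they averaged 1.33 to 26.5 CPM. Prupe.8G027100.v2.1 had 6.23, 7.0, 10.8, 8.02 and 7.59 CPM in MN, and 0.13, 0.044, 0, 0 and 0 CPM in Sunraycer (log2 7.61, SE 0.424, edgeR adjusted p = 1.17e-09). Without Sunraycer 1 it was 8.63, resting on 1 Sunraycer count. TN7 had 5.17 to 7.57 CPM and TN11 2.05 to 3.41 CPM. Prupe.8G027300.v2.1 had 5.55 to 7.63 CPM in MN, 0 to 0.259 CPM in Sunraycer, 3.38 to 7.14 CPM in TN7 and 9.35 to 13.6 CPM in TN11 (log2 6.71 between the nectarines, SE 0.485, edgeR adjusted p = 3.33e-08). Without Sunraycer 1 it was 8.39, again from 1 count.

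Of the 9 genes, TN7 was nearer to MN in 5 and TN11 in 2, so the peaches differ from each other along the row. The last gene of the window, Prupe.8G028000.v2.1, had 7.5 to 8.95 CPM in MN and no count in Sunraycer or in any peach library, at least 242-fold higher. The window also held 3 genes called lower in MN, by log2 differences of −2.99 to −2.18. The other 17 of the 30 were not called, 9 of them with at least 20 CPM in MN. Prupe.8G027900.v2.1, among these, had 185 to 209 CPM in MN and 158 to 271 CPM in Sunraycer, with a 95% interval of −0.35 to 0.11 on the log2 scale. The cause of the missing Sunraycer counts was not tested.

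**Figure D5:**
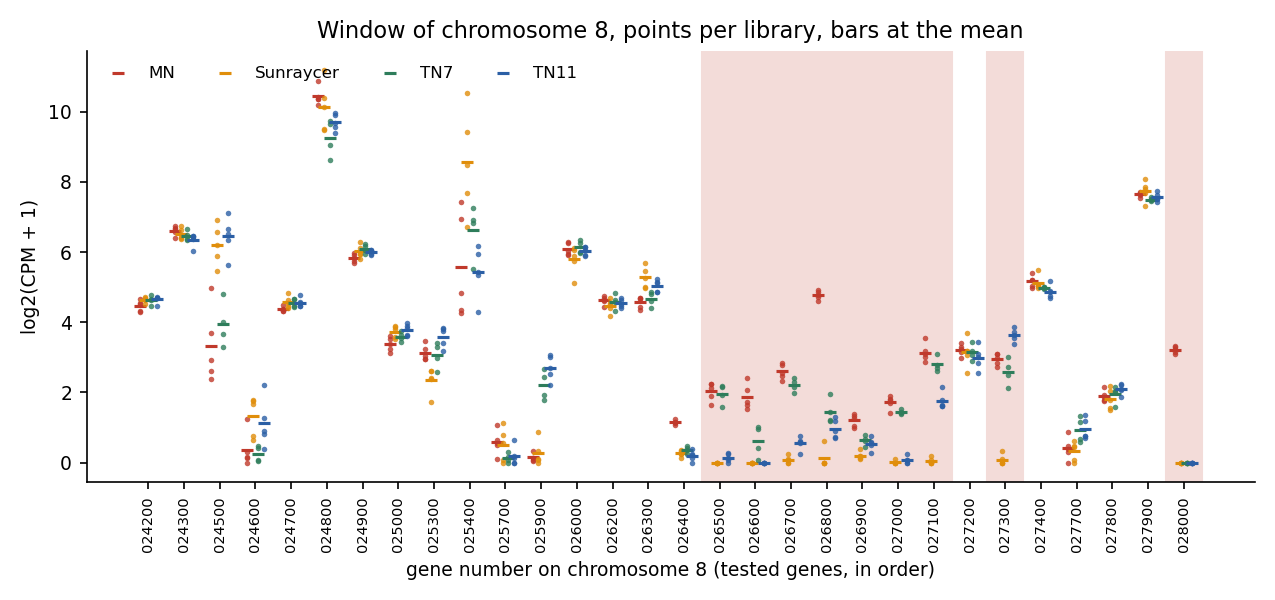
Log2(CPM + 1) of the 30 consecutive tested genes of the chromosome 8 window in every library, coloured by accession, with a bar at each mean; shaded genes are at least 8-fold higher in MN without overlap. Sunraycer lies at or near 0 in all 9 shaded genes, TN7 is close to MN in several of them, and the accessions lie close together in most of the unshaded ones.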

How the data were processed

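The authors deposited 1 table of estimated counts per gene for 19 libraries, not normalized; every entry is a whole number. Per the labels' protocols, the RNA came from a column kit (RNeasy Plant Mini) and the library kit was TruSeq Stranded mRNA. The submitters' processing notes list, without roles, R 4.1.1, DESeq2, Bowtie2 2.5.1 and RSEM 1.2.31. Build, strand setting and filters: not given in the sources used here. Replicate 4 of TN7 was not analysed here. All columns matched a sample title (0 were left over).

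Of 26811 genes, 2286 had no count and filterByExpr kept 19360. TMM factors scaled the counts, and edgeR's quasi-likelihood model was fitted over all 19 libraries, 1 mean per accession. Adjusted p is Benjamini-Hochberg over the 19360 genes. The SE is the log2 fold change divided by the square root of F. The pseudocount is 1. Bounds use 3 counts over the group and, like the counts themselves, cover counting error only.

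The gene IDs are not paired with names or descriptions in the files, and 0 matched the reference table. Gene lists planned by description (pathways, tissue markers, promoter motifs) could not be applied, so the tissue label was not checked against markers. Few IDs are printed for this reason. Named genes were the 10 with the largest fold and the 5 most abundant in each direction among called genes with at least 10 CPM and no overlap, with the G locus gene. Steady genes, windows, rows of neighbours and the genes named within them were chosen after values were seen. The comparison and its lists were chosen with earlier results of these data known.

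No pair of libraries of a nectarine differed by sampling noise alone (smallest chi-square per degree of freedom 10.4). Alternatives were other scaling factors, no filter, DESeq2, limma-voom, glmTreat, no fold minimum, nectarines alone, a replicate block, the direction score, and each library left out. Python 3.11.15 ran NumPy 2.4.6, pandas 2.3.3, matplotlib 3.10.9 and SciPy 1.17.1, and R 4.3.3 ran DESeq2 1.42.0, limma 3.58.1 and edgeR 4.0.16.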

Additional observations from a re-analysis of the deposited data

Results flagged for a closer look

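Of 35 groups of 5 values examined among the printed genes and library measures, 2 had a library far from the other 4, and chance alone gives about 1 in 20. Prupe.8G008700.v2.1 reached 0.361 CPM in MN 4, against 0.17 to 0.224 CPM in the other MN libraries, from 8 counts. Prupe.8G027300.v2.1 reached 0.259 CPM in Sunraycer 1, against 0 to 0.0681 CPM in the other Sunraycer libraries. Neither moved the call of its gene in any fit that left out a library.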

How the results depend on the processing

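The count of 4884 called genes was 3854 to 5577 when each library was left out in turn, with 1032 to 2155 higher and 2822 to 3422 lower. Without Sunraycer 1 and MN 3, a choice made after seeing the data, 3546 genes were called, 930 of them higher. Without the fold minimum 11739 were called (5800 higher, 5939 lower), and with the direction score as a covariate 144 (64 higher, 80 lower). DESeq2 gave 4954, limma-voom 5165, DESeq2 size factors 4910, upper-quartile factors 5022, no filter 5533, glmTreat 3982 and the nectarines alone 4290. No called gene was called the other way in any of these fits. Higher genes made up 33.3% of the calls, and 26.2% to 40% under the other settings apart from the score and the missing fold minimum (38.6% at most with a library left out).

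With the replicate number as a block 4987 genes were called. The deviations of same-numbered libraries of the nectarines correlated by −0.389, 0.403 and −0.153. With so few shared numbers and mixed signs, whether the numbers pair the libraries cannot be decided.

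With the direction score as a covariate the sign turned for Prupe.3G174700.v2.1 (−0.57), Prupe.4G048800.v2.1 (−0.632), Prupe.2G038800.v2.1 (−1.305), Prupe.1G542600.v2.1 (−0.924), Prupe.3G004100.v2.1 (−0.553), Prupe.3G012200.v2.1 (0.015) and the uncalled Prupe.8G027900.v2.1 (0.297), all log2 and none called. The score and the accession cannot be told apart in these libraries, and the cause was not tested. Of 789 values of 38 named genes under 21 settings, 755 kept direction and call. The difference in score was −114 to −92.7 with a library left out. Genes with no count numbered 13 to 16 for MN and 10 to 17 for Sunraycer with a library left out, and 4 and 1 at a minimum of 5 CPM. Without the filter, 177 genes were at least 8-fold higher and 1201 lower in MN, and with the direction score 53 and 50. In Sunraycer the strongly differing genes of the chromosome 8 window rest on at most 14 counts each. Promoter motifs were not run, since no promoters were given.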
